A study of Oryctolagus cuniculus with 16 samples.

Results

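The vaginal wall of rabbits that had received an acellular graft was compared with that of rabbits that had no surgery, across all genes. The comparison was chosen by the treatment given in the labels, and it takes 3 acellular and 6 control libraries of the 16 in the study. The study used juvenile female rabbits of the New Zealand White strain, 17 to 19 weeks old, with a body weight of 3.1 ± 0.3 kg. Acellular tissue, labelled as treated without particles, was taken 10 mm from the graft. Control tissue was native vagina, and the labels give no sampling distance for it, so the sampling site cannot be told apart from the graft. The time between surgery and sampling is likewise not in the labels. Messenger RNA with a poly(A) tail was sequenced from frozen tissue of 1 animal per library, and each library is named here by its group and animal number (control 2, 9, 16, 24, 25 and 29, and acellular 6, 8 and 10). A further 3 libraries from sham-operated animals and 4 from animals with a PLATE graft entered the fit. They are used below only for reference levels. A PLATE graft is an autologous micrograft that carries tissue particles. The number 9 occurs in a control label and in a PLATE label, and whether this is 1 animal is not given. The fit took all 16 libraries as independent.

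The vaginal wall is a layered tube. An epithelium faces the lumen, and below it lie a connective tissue layer rich in fibroblasts and vessels and a coat of smooth muscle. Smooth muscle cells shorten when myosin slides along actin filaments, a process set off by calcium and by phosphorylation of the myosin light chain, and dense bodies and adhesion plaques pass the force on to the matrix. An acellular graft is a scaffold without living cells, into which the cells of the host can grow.

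Of 13001 named genes, 10942 had enough reads to be tested. Acellular 6, 8 and 10 had 27220874, 20992063 and 25373486 counts in total, and the controls had 23190264 to 30190710. Named genes took 15348880 of these in the shallowest library and 23236339 in the deepest. The groups overlapped in depth, and the difference did not pass the test (exact permutation test of total counts, two-sided, p = 0.286, Benjamini-Hochberg adjusted p = 0.476 over 5 measures). ESR1 and PGR, the receptors for oestrogen and progesterone, were read in every library. ESR1 measured 161 to 371 CPM (counts relative to the library's size after TMM scaling) in control with a median of 301, and 324, 415 and 467 CPM in acellular 6, 8 and 10. Of the markers chosen to check the tissue, CNN1, CD3E, CD3D, CD79A, CXCR2, PLIN1, MYH2 and HBB had no row under these symbols in the counts used here. They could not be analysed. CPA3, a mast cell protease, had 0 counts in all 9 libraries.

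A pair of control libraries stood apart. Control 2 held almost no epithelial RNA: EPCAM, an epithelial adhesion molecule, had 19 counts there and 1134 to 6295 in the other controls. Control 2 also had the highest share of mitochondrially encoded counts, 26.0% against 8.92% to 15.7% in the other controls, and the fewest genes detected, 10797. Its TMM scaling factor was 0.59, against 0.95 to 1.15 in the other controls. A factor below 1 raises every CPM of the library, so the upper ends of control ranges that control 2 sets carry this scaling. Control 9 lay at the opposite end, with the highest mean over the columnar epithelial genes, 6.91 on the log2 CPM scale against 0.41 in control 2. Results that rest on these libraries are therefore given with and without them. Because the libraries come from whole tissue, fewer cells of a type and less RNA per cell cannot be told apart in any value below.

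No gene passed a Benjamini-Hochberg adjusted p of 0.05 in edgeR's quasi-likelihood test, which is 0% of those tested. The smallest adjusted p was 0.69, for P2RX1, and the other genes with an unadjusted p under 0.05 shared an adjusted p of 0.827 in the same test. At an unadjusted p under 0.05 there were 656 genes (6.00%), of which 462 were lower (4.22%) and 194 higher (1.77%) in acellular tissue. Among all genes tested, 54.2% had a log2 fold change below 0, and the median was −0.03. The 3 acellular libraries did not overlap the 6 controls for 189 genes (1.73%), 1.02% of those tested being lower and 0.704% (77 genes) higher. These shares of all genes are the background for the counts of list members below. Those counts cover only the members tested, since many entries of some lists had no row in the counts used here. Tested were 24 of 40 T cell and natural killer cell entries and 38 of 56 interferon-response entries. For the nuclear genes of oxidative phosphorylation it was 28 of 50, and for the cytoplasmic ribosomal proteins 13 of 51. The count of genes under 0.05 was 1107 without control 9 and 311 without acellular 8. Without control 2 and control 9, 460 genes were lower and 403 higher at that p. The count of genes without overlap was 936 without acellular 6, 785 without acellular 10, 347 without acellular 8, 545 without control 9 and 397 without control 29. DESeq2 with its default filtering called 10 of 10860 genes at an adjusted p under 0.05 (0.0921%), 9 of them lower and 1 higher. With its filtering set for a threshold of 0.05, DESeq2 gave 1388 genes an adjusted p and called 17 of them (1.22%), all lower, and 3 of these genes were shared with the default run. The other 7 default calls, P2RX1 among them, received no adjusted p under this filtering. Limma-voom called none.

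**Figure D1:**
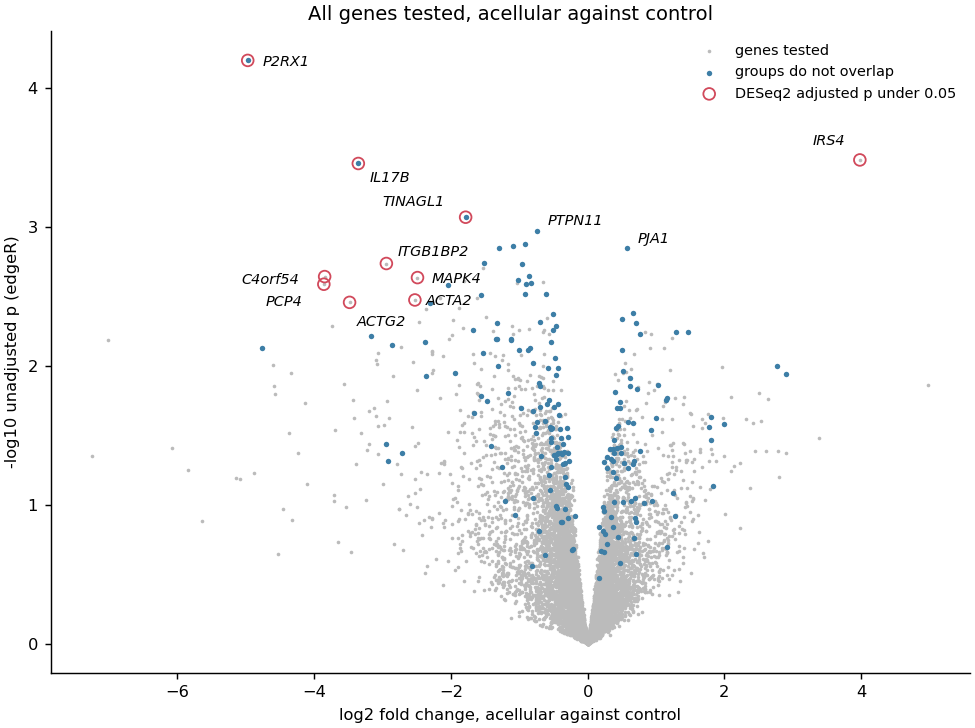
Log2 fold change of acellular against control (x axis) and −log10 of the unadjusted edgeR p (y axis) for the 10942 genes tested, with the 189 genes whose groups do not overlap in blue and the 10 DESeq2 calls circled. The genes at the top left include P2RX1, IL17B and TINAGL1, and IRS4 stands alone at the top right.

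The contractile machinery was lower in acellular tissue than in the middle of the control range, and it was at the level of the lowest controls rather than below all of them. All 37 tested genes of the thin filament, of myosin and its regulators, and of dense bodies and adhesion plaques had a log2 fold change below 0, against 54.2% of all genes. Of these, 19 had an unadjusted p under 0.05, where 4.22% of all genes did on the lower side, and 1 had groups that did not overlap (1.02% of all genes). Their median log2 fold change was −0.82. It was −0.60 without control 2, −1.02 without control 9 and −0.78 without both. The 37 genes largely rose and fell together across the libraries, so the 19 are not independent observations. These lists were chosen with earlier results of these data known, and they were not tested as sets.

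Thin filaments carry the actins that myosin pulls on. All 6 tested members of this list were lower and 4 had an unadjusted p under 0.05. The median was −2.07, or −1.66 without control 2. ACTG2, the enteric smooth muscle actin, measured 959 to 49071 CPM in control with a median of 12416, and 1283, 1823 and 1549 CPM in acellular 6, 8 and 10. The acellular libraries lay close together and below 5 of the 6 controls, and control 9 was lower than all of them. The log2 fold change was −3.48 ± 1.01 (SE; edgeR quasi-likelihood test, Benjamini-Hochberg adjusted p = 0.827), and DESeq2 called it at an adjusted p of 0.0137. Without control 2 the log2 fold change was −2.81. ACTA2, the alpha actin of smooth muscle, measured 1794 to 28883 CPM in control, median 12745, and 1728, 2489 and 2514 CPM in acellular. Its log2 fold change was −2.53 ± 0.727, with a DESeq2 adjusted p of 0.0338, and it was −2.10 without control 2. Here too acellular 8 and 10 overlapped the low end of the controls. TPM1, the tropomyosin that lies along actin, had 2192, 2188 and 2463 CPM in acellular against a control median of 7512, and SMTN, the actin-binding protein smoothelin, had 182, 230 and 190 CPM against a control median of 832. Their log2 fold changes were −1.99 ± 0.623 and −2.15 ± 0.618, and −1.59 and −1.73 without control 2.

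**Figure D2:**
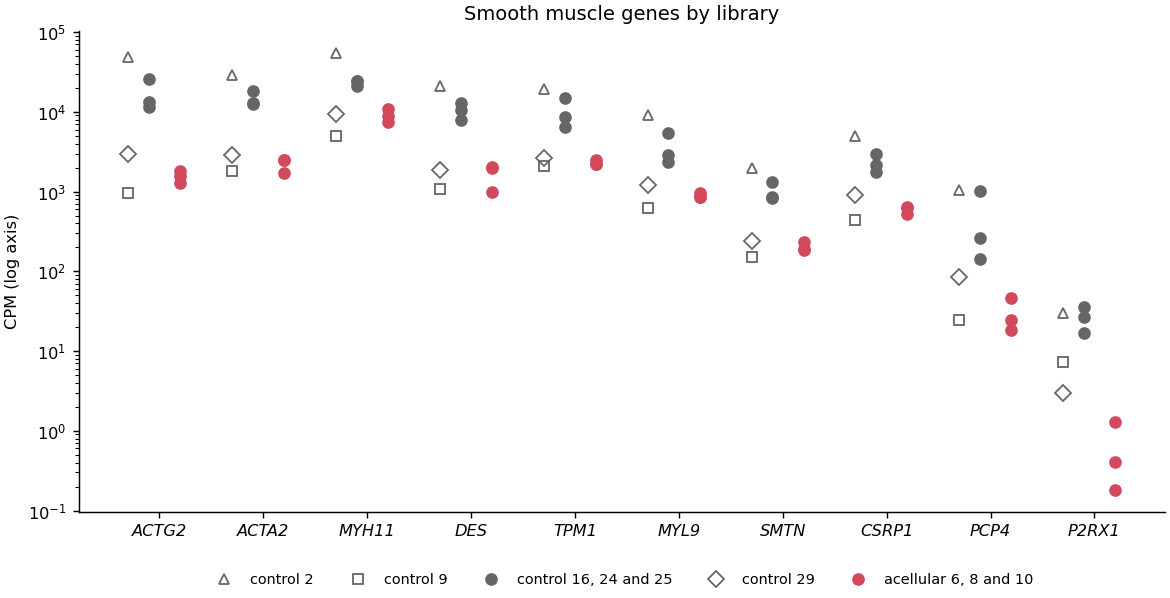
CPM on a log axis (y axis) of 10 smooth muscle genes (x axis), 1 point per library, with control 2, 9 and 29 given their own open symbols. The acellular points sit close together near control 9 and control 29 for the contractile genes, and below all 6 controls for P2RX1.

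Myosin, the motor, and its regulators were likewise lower. All 9 members had a log2 fold change below 0, 7 with an unadjusted p under 0.05, and the median was −1.35, or −0.88 without control 2. MYH11, the smooth muscle myosin heavy chain, had a log2 fold change of −1.35 ± 0.614, which was −0.88 without control 2. It measured 8745, 10857 and 7548 CPM in acellular, inside the control range of 4924 to 54528. MYL9, a regulatory light chain, measured 624 to 9230 CPM in control, median 2646, and 854, 853 and 964 CPM in acellular. The log2 fold change was −2.03 ± 0.642, and −1.48 without control 2. PPP1R12B, a targeting subunit of myosin phosphatase, measured 86.3, 38.7 and 35.3 CPM in acellular against a control median of 252 (log2 fold change −2.12 ± 0.702). The list's non-overlapping member was PPP1R14A, an inhibitor of that phosphatase, at 1.6, 2.15 and 1.92 CPM in acellular and 2.56 to 13.1 CPM in control. The log2 fold change was −1.47 ± 0.553, and −0.95 without control 24, its highest control. PCP4, a small calmodulin-binding protein, measured 18.2, 46.0 and 24.8 CPM in acellular and 24.8 to 1051 CPM in control, median 203. The difference was −3.86 ± 1.07 on the log2 scale, and DESeq2 called it at an adjusted p of 0.00633.

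All 22 dense body and adhesion plaque genes were lower, 8 with an unadjusted p under 0.05. The median was −0.78, or −0.54 without control 2. DES, the intermediate filament desmin, measured 1077 to 21079 CPM in control, median 9225, and 1000, 2045 and 1948 CPM in acellular. Its log2 fold change was −2.47 ± 0.749, and −2.03 without control 2. CSRP1, a LIM protein of smooth muscle, measured 626, 632 and 524 CPM against a control range of 443 to 4925 (−1.88 ± 0.552). ITGA7, a laminin-binding integrin chain of muscle, measured 5.66, 11.7 and 10.5 CPM against 10.8 to 65.8 in control (−1.80 ± 0.497). The groups overlapped for all 3 of these genes. ITGB1BP2, which binds the integrin beta tail in muscle, is not in this list. It measured 2.65, 2.08 and 2.57 CPM in acellular and 2.36 to 38.3 CPM in control, median 14.5. Its log2 fold change was −2.94 ± 0.781, and DESeq2 called it at an adjusted p of 0.0208.

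The controls themselves were split for these genes. Control 2 lay above every acellular library for 36 of the 37 contractile genes, control 24 for 35, control 16 for 34 and control 25 for 28. Control 29 did so for 16 and control 9 for 2. For 27 of the 37 genes, controls 2, 16, 24 and 25 were all above every acellular library. On the mean log2 CPM of the thin filament genes, the acellular libraries were at 9.80, 10.28 and 10.05, control 9 at 9.44, control 29 at 10.36 and the other controls at 11.84 to 13.20. The 2 ends of that control range also differed in epithelium: the mean log2 CPM of the 24 columnar epithelial genes was 0.41 in control 2 and 6.91 in control 9. It was 5.35 in control 29 and 5.38, 5.55 and 6.52 in acellular. The epithelial markers CDH1 and EPCAM were above 0 in all 9 libraries, and the part of epithelial RNA in the muscle result was not tested.

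Transcription factors that switch on the contractile genes had a median nearer to 0. Of 12 tested, 8 were lower and 2 had an unadjusted p under 0.05, with a median of −0.24 (−0.14 without control 2 and −0.15 without acellular 10). SRF, the factor that binds their promoters, measured 74.6, 56.4 and 50.9 CPM in acellular against 47.5 to 203 CPM in control, median 125, for a log2 fold change of −0.97 ± 0.354. FHL2, a LIM-only coactivator, had −1.25 ± 0.42. MYOCD, the coactivator myocardin, measured 68.6, 74.1 and 94.7 CPM in acellular, within the control range of 39.8 to 181. The log2 fold change of −0.45 ± 0.448 (−0.23 without control 2) did not pass the test (edgeR quasi-likelihood, Benjamini-Hochberg adjusted p = 0.916).

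Among the 20 ion channels and calcium-handling genes, 18 were lower, 3 of them with an unadjusted p under 0.05, and 1 of the 2 higher members had one too. The median was −0.73, and −0.43 without control 2. P2RX1, the ATP-gated cation channel through which sympathetic nerves contract smooth muscle, had the smallest p of all genes. It measured 3.00 to 35.5 CPM in control, median 21.9, and 0.182, 0.403 and 1.28 CPM in acellular, from 4, 6 and 26 counts against 59 to 684 in control. It was lower in all 3 acellular libraries than in every control, control 9 and control 29 included. The log2 fold change was −4.97 ± 0.91 (edgeR quasi-likelihood test, Benjamini-Hochberg adjusted p = 0.69, unadjusted 6.31e-05), −5.02 without control 2 and control 9, and DESeq2 called it at an adjusted p of 3.27e-08. KCNJ8, a subunit of the ATP-sensitive potassium channel, measured 65.7, 65.5 and 43.8 CPM in acellular and 37.8 to 297 CPM in control (−1.39 ± 0.507). TRPC6, a receptor-operated cation channel, was higher, at 19.0, 11.8 and 11.1 CPM against 4.33 to 11.9 CPM in control, for a log2 fold change of 0.88 ± 0.323. Acellular 6 lay above every control, and acellular 8 and 10 lay just below the highest one.

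The receptors and cyclic GMP genes of smooth muscle showed no common direction, with 10 higher and 11 lower of 21 and a median of −0.06 (−0.30 without acellular 6 and 0.18 without acellular 8 or acellular 10). ADRA1A, an alpha-1 adrenergic receptor, measured 15.7, 14.9 and 13.4 CPM in acellular and 9.40 to 62.6 CPM in control, median 34.0 (log2 fold change −1.35 ± 0.541). PTGFR, the receptor for prostaglandin F2 alpha, went the other way, at 92.2, 76.3 and 40.0 CPM in acellular against 15.7 to 42.3 CPM in control (1.24 ± 0.39). For PTGFR, acellular 6 and 8 were above every control and acellular 10 was not.

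Vascular mural cells, the pericytes and smooth muscle that wrap vessels, share part of this program. Of 11 mural genes 8 were lower and 1 had an unadjusted p under 0.05, with a median of −0.49. That member was MCAM, an adhesion molecule of mural and endothelial cells, at 71.2, 86.6 and 83.4 CPM in acellular and 86.8 to 362 CPM in control, median 243. All 3 acellular libraries lay below every control, though acellular 8 was just under the lowest. The log2 fold change was −1.52 ± 0.402. The 2 defining pericyte markers were not lower: RGS5 measured 156, 175 and 224 CPM in acellular against a control median of 89.3 (log2 fold change 0.64 ± 0.63, and 1.22 without control 24), and PDGFRB 145, 189 and 140 CPM against a control median of 125 (0.35 ± 0.319, with 0.19 without control 25, 0.20 without acellular 8 and 0.57 without control 9). Both overlapped the controls and neither passed the test (edgeR quasi-likelihood, Benjamini-Hochberg adjusted p = 0.916 and 0.908). Endothelial genes were split, 8 higher and 11 lower of 19, with a median of −0.11 that took either sign when 1 library was left out (−0.25 without control 25 and 0.11 without acellular 6).

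Fibrillar collagens and the enzymes that process them were lower as a list. Of 32 members 25 were lower and 8 of these had an unadjusted p under 0.05 (4.22% of all genes on the lower side). The median was −0.67, or −0.51 without control 2, −0.74 without control 9 and −0.61 without both. The mean log2 CPM of the list was 6.11, 6.21 and 6.12 in acellular. Control 29 was lower at 6.01 and control 9 close at 6.28, and the other 4 controls were at 6.68 or above. COL3A1, the chain of type III collagen, measured 4316, 3831 and 2573 CPM in acellular and 2922 to 18243 CPM in control, median 8621 (log2 fold change −1.43 ± 0.599). COL5A2, a type V chain that sets fibril diameter, measured 206, 219 and 198 CPM against 211 to 793 CPM in control (−1.13 ± 0.468). SPARC, a collagen-binding matrix protein, had groups that did not overlap: 324, 481 and 488 CPM in acellular and 531 to 1791 CPM in control. The difference was −1.32 ± 0.418 on the log2 scale.

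Fibroblast genes showed no common direction, with 12 higher and 9 lower of 21 and a median of 0.12 (−0.13 without acellular 8). The 2 defining markers were not lower. DCN, the small proteoglycan decorin, measured 6944, 9016 and 4681 CPM in acellular against a control median of 5407, and PDGFRA, a growth factor receptor of fibroblasts, 102.4, 100.4 and 75.3 CPM against a control median of 65.6. Their log2 fold changes were 0.26 ± 0.363 and 0.31 ± 0.402, and neither passed the test (edgeR quasi-likelihood, Benjamini-Hochberg adjusted p = 0.947 and 0.942). Leaving out 1 library moved DCN to between 0.02 (without acellular 8) and 0.48 (without acellular 10), and PDGFRA to between 0.12 (without control 25) and 0.64 (without control 9). The 3 members with an unadjusted p under 0.05 were lower, where 4.22% of all genes were lower at that p. THY1, a surface glycoprotein, measured 111.7, 126 and 118 CPM in acellular and 156 to 334 CPM in control (−1.02 ± 0.28), and GSN, the actin-severing protein gelsolin, 2114, 2742 and 2820 CPM against 3131 to 12112 CPM (−1.32 ± 0.401). Neither gene's groups overlapped, while S100A4 (−1.39 ± 0.538) overlapped.

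Basement membrane genes were also mostly lower, 15 of 18, with a median of −0.47. Of these, 4 had an unadjusted p under 0.05 (4.22% of all genes on the lower side). COL4A1, a type IV collagen chain of the basement membrane sheet, measured 273, 295 and 266 CPM in acellular and 290 to 1393 CPM in control, median 732 (log2 fold change −1.38 ± 0.429). TINAGL1, a secreted matrix protein of basement membranes, measured 19.6, 28.4 and 27.4 CPM in acellular and 40.8 to 133 CPM in control, median 96.1. The gap held for every library, and the log2 fold change of −1.78 ± 0.431 was called by DESeq2 at an adjusted p of 0.0307. Elastic fibre genes were split, 5 higher and 5 lower of 10, with a median of 0.03. The lowest of them was MFAP4, a protein of elastic microfibrils, which measured 122, 81.9 and 72.6 CPM against a control median of 311 (−1.53 ± 0.411). FN1, fibronectin, measured 1610, 2994 and 1781 CPM against a control median of 5165 (−1.29 ± 0.522, and −0.90 without control 2). The metalloproteinases and their inhibitors were lower in 14 of 17 cases, but their median of −0.92 was −0.21 without control 9, −0.39 without control 24, −0.56 without control 2 and −0.60 without acellular 8. Within that list ADAMTS9, a secreted protease of matrix proteoglycans, measured 35.8, 30.0 and 42.9 CPM against a control median of 156 (−2.27 ± 0.747).

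**Figure D3:**
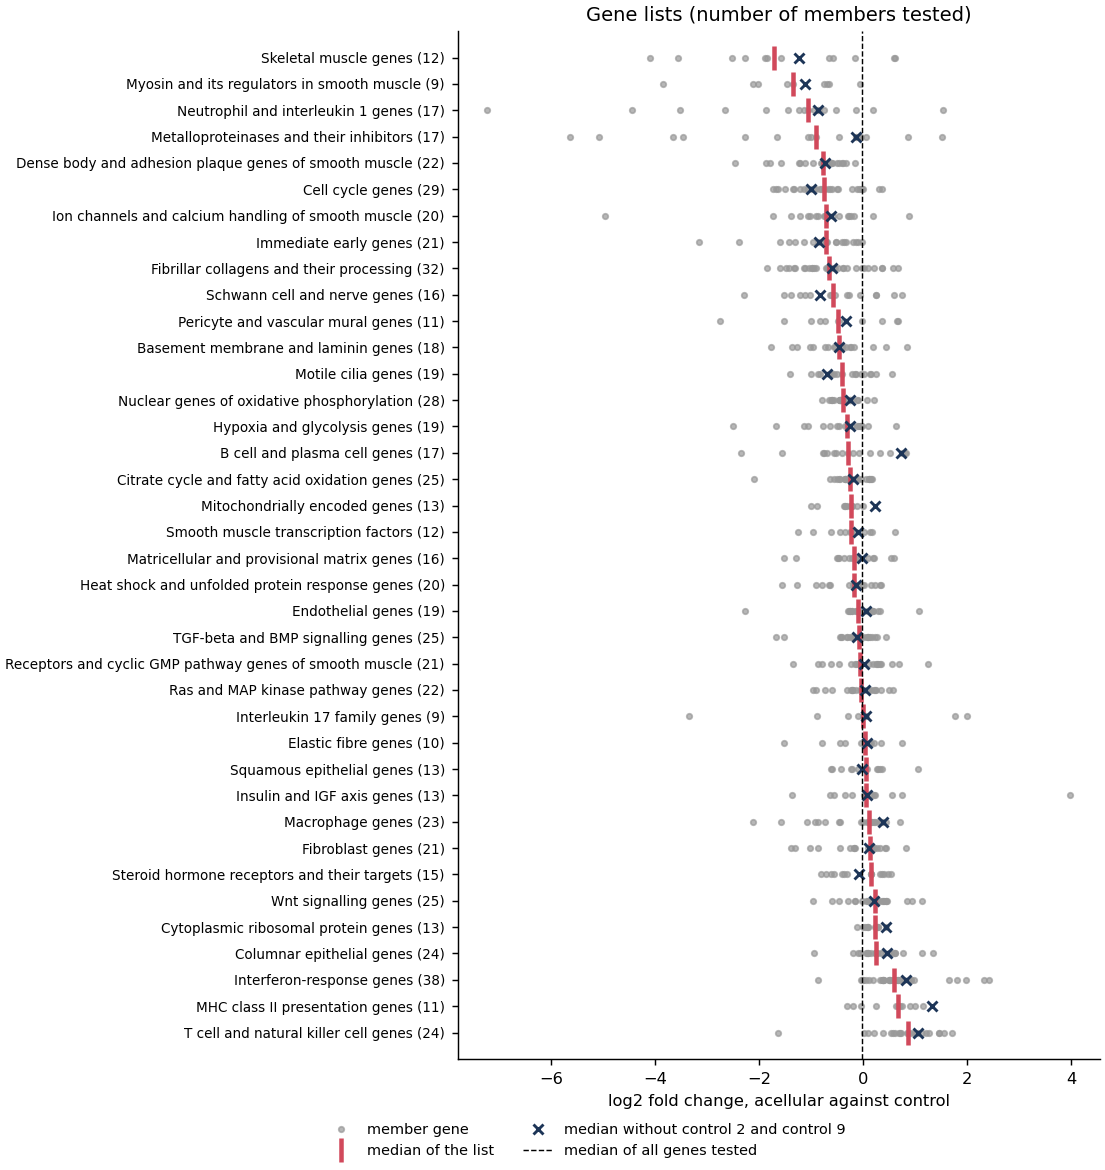
Log2 fold change of acellular against control (x axis) for each tested member (grey points) of the gene lists with at least 9 members tested (y axis), with the list median (red bar), the median without control 2 and control 9 (cross) and the median of all genes tested (dashed line). The myosin, dense body and collagen lists lie left of 0 under both medians, while the B cell list crosses 0 when the 2 libraries are left out.

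Across all genes, 44 met 3 conditions at once: an unadjusted p under 0.01, groups that did not overlap and a mean of at least 1 CPM. Of these 37 were lower and 7 higher in acellular tissue. IL17B, a secreted cytokine of the interleukin 17 family, measured 1.69, 1.28 and 1.13 CPM in acellular and 2.28 to 26.4 CPM in control, median 15.1. Its log2 fold change was −3.35 ± 0.731, with a DESeq2 adjusted p of 0.000431, and it was −3.33 without control 2 and control 9. PTPN11, the phosphatase SHP2 that carries receptor signals to Ras, had a small difference between tight groups: 46.8, 49.5 and 50.4 CPM in acellular against 63 to 99.2 CPM in control (−0.75 ± 0.185). WNT2B, a Wnt ligand, measured 9.67, 10.1 and 7 CPM against 11.4 to 24.0 CPM (−0.96 ± 0.256). In its list of 25 Wnt genes, 18 members were higher and the median was 0.22 (0.10 without control 2 and 0.11 without control 25).

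Several other lower genes belonged to none of the lists. PLXNB3, a semaphorin receptor, measured 4.93, 4.23 and 5.62 CPM in acellular against 6.93 to 21 CPM in control (log2 fold change −1.30 ± 0.333). CTIF, a translation initiation factor that works with the nuclear cap-binding complex, measured 18.2, 12.2 and 14.0 CPM against 18.8 to 45.3 CPM (−1.09 ± 0.278), and FAM114A1 52.6, 70.6 and 78.8 CPM against 82.5 to 160 CPM (−0.92 ± 0.235). PRKAG2, a regulatory subunit of the AMP-activated kinase, measured 55.7, 72.6 and 69.8 CPM against 80.0 to 180 CPM (−0.83 ± 0.23). These 4 genes did not overlap between groups. Larger fold changes came with a wider control range: PCSK7, a proprotein convertase, measured 56.2, 46.2 and 52.1 CPM against 57.4 to 442 CPM (−2.05 ± 0.569), SPON1, a secreted matrix protein, 93.5, 95.7 and 98.8 CPM against 105.4 to 536 CPM (−1.68 ± 0.519), and POLQ, a DNA repair polymerase, 0.821, 1.28 and 1.23 CPM against 1.78 to 10.2 CPM (−2.38 ± 0.759). For PCSK7 and SPON1 the lowest control lay just above the highest acellular library. MAPK4, an atypical MAP kinase, and C4orf54 were called by DESeq2 at the adjusted p of 0.0357 and 0.0295, yet their groups overlapped. MAPK4 measured 6.39, 3.70 and 8.48 CPM in acellular and 6.08 to 72.3 CPM in control (−2.49 ± 0.681). C4orf54 had 6, 3 and 7 counts in acellular and 5 to 140 counts in control (−3.85 ± 1.05).

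Among the higher genes was SMPDL3A, a phosphodiesterase related to acid sphingomyelinase. It measured 47.8, 53.6 and 60.5 CPM in acellular and 20.5 to 42.2 CPM in control, for a log2 fold change of 0.76 ± 0.238. TMEM192, a lysosomal membrane protein, measured 24.8, 19.8 and 22.8 CPM against 12.0 to 19.5 CPM (0.67 ± 0.199). SOAT1, the enzyme that esterifies cholesterol, measured 59.2, 64.4 and 58.3 CPM against 32.7 to 52.9 CPM (0.50 ± 0.152). PJA1, a ubiquitin ligase, measured 33.7, 29.2 and 26.3 CPM against 18.0 to 23.9 CPM (0.58 ± 0.149). NEDD1, which anchors the gamma-tubulin ring complex, measured 31.8, 31 and 23.9 CPM against 18.2 to 23.6 CPM (0.50 ± 0.164), and PPP1R1B, an inhibitor of protein phosphatase 1, had 52, 54 and 54 counts against 10 to 46 counts (1.46 ± 0.454). In these 6 genes the 3 acellular libraries lay above every control, by a narrow margin for NEDD1, PPP1R1B and TMEM192.

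IRS4, an adaptor of the insulin receptor, had the second smallest p and was the one higher gene that DESeq2 called, at an adjusted p of 0.0357. Its counts were 143 in acellular 6, 15 in acellular 8 and 3 in acellular 10, and 1 to 9 in control. The groups overlapped, since acellular 10 lay within the controls. The log2 fold change was 3.98 ± 0.863 and was 1.82 without acellular 6. IL23R, a chain of the interleukin 23 receptor, did not overlap between groups but rested on few reads, with 26, 7 and 8 counts in acellular and 0 to 7 in control (1.99 ± 0.808, and 1.32 without acellular 6).

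The other operated groups give reference levels for these genes. They share the acellular libraries with the comparison above, so they are not independent of it. P2RX1 averaged 5.75 CPM in sham and 10.1 CPM in PLATE tissue, and acellular was lower by a log2 fold change of −3.18 against sham and −4.0 against PLATE. For IL17B the group means were 6.19 and 6.88 CPM and the log2 fold changes −2.17 and −2.32. MCAM averaged 263 CPM in sham and 149 CPM in PLATE (−1.71 and −0.89), and SPARC 932 and 1181 CPM (−1.11 and −1.45). PJA1, one of the higher genes, averaged 23.8 and 23.1 CPM (0.32 and 0.36). For comparison, ACTG2 averaged 8764 CPM in sham and 8186 CPM in PLATE tissue (−2.5 and −2.40). All 6 genes had an adjusted p of 0.902 against sham and 0.875 against PLATE in edgeR's quasi-likelihood test with Benjamini-Hochberg adjustment, so none passed.

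**Figure D4:**
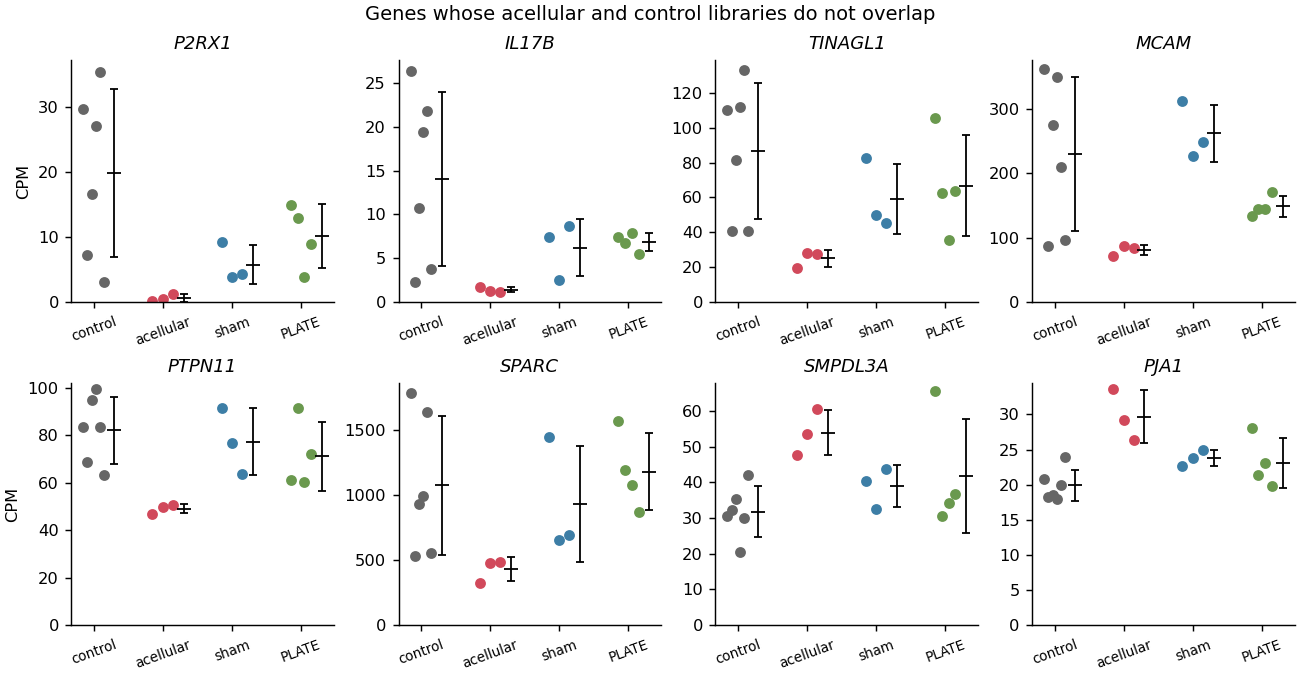
CPM (y axis) of 8 genes in the control, acellular, sham and PLATE libraries (x axis), 1 point per library, with the mean and SD beside each group. The acellular points lie below all controls for the first 6 genes and above them for SMPDL3A and PJA1, and the PTPN11 points of acellular span 46.8 to 50.4 CPM.

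Interferon-response genes, which cells switch on when they sense interferons, were mostly higher in acellular tissue. Of 38 tested, 34 were higher, against 45.8% of all genes, and 5 of these had an unadjusted p under 0.05 (1.77% of all genes on the higher side), with no member whose groups did not overlap. The median was 0.59. It was 1.00 without control 9 and 0.18 without acellular 10. The list mean was 4.97, 5.87 and 6.38 log2 CPM in acellular 6, 8 and 10, and 3.25 to 6.36 in control. Acellular 6 lay in the middle of the controls, acellular 8 above 5 of them and acellular 10 at the level of control 9. CXCL11, a chemokine that draws in activated T cells, measured 7.62, 74.5 and 131 CPM in acellular and up to 49.3 CPM in control (log2 fold change 2.41 ± 0.978). CXCL10, a chemokine for the same receptor, measured 22.4, 149 and 101.7 CPM against 1.98 to 47.7 CPM (1.97 ± 0.67). GBP1, an interferon-induced GTPase, measured 120, 517 and 1502 CPM against 19.7 to 741 CPM, for a log2 fold change of 1.80 ± 0.80 that was 0.64 without acellular 10 and 2.87 without control 9. For the 2 chemokines, acellular 8 and 10 were above every control and acellular 6 was near the control median.

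T cell and natural killer cell genes showed the same split between the acellular libraries. Of 24 tested, 23 were higher, 1 with an unadjusted p under 0.05 (1.77% of all genes on the higher side). The median was 0.85, or 0.48 without acellular 8, 1.28 without acellular 6 and 1.32 without control 9. The list mean was 0.58, 2.5 and 2.27 log2 CPM in acellular 6, 8 and 10. CXCR6, a chemokine receptor of tissue T cells, measured 12.5, 89.3 and 54.9 CPM in acellular and 1.17 to 47.7 CPM in control (1.56 ± 0.719, and 0.92 without acellular 8). MHC class II genes, which present antigen to helper T cells, were higher in 8 of 11 cases with a median of 0.66. It was 0.22 without acellular 8, 0.30 without acellular 10, 1.11 without acellular 6 and 1.33 without control 9. HLA-DRA, the alpha chain of a class II molecule, measured 283, 1565 and 1552 CPM in acellular against 221 to 1800 CPM in control, median 368 (0.90 ± 0.697, with 1.63 without control 9, 1.36 without acellular 6 and 0.60 without acellular 8; edgeR quasi-likelihood, Benjamini-Hochberg adjusted p = 0.881). In each of these lists control 9 was level with the highest acellular library or above it: its means were 6.36, 2.48 and 6.52 log2 CPM for the interferon, T cell and class II genes.

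Among antibody-producing and myeloid cells, 2 of 3 lists changed sign when 1 library was left out. B cell and plasma cell genes were higher in 6 of 17 cases with a median of −0.29, which was 0.90 without control 9. Control 9 lay above every acellular library for all 17. Macrophage genes were higher in 13 of 23, with a median of 0.11 that lay between −0.52 (without acellular 10) and 0.44 (without acellular 6) when 1 library was left out. Neutrophil and interleukin 1 genes were lower in 15 of 17, with a median of −1.07 that was −2.71 without acellular 10 and −0.65 without acellular 8. Among these, IL1B, a cytokine that starts inflammation, measured 3.01, 2.22 and 11.0 CPM in acellular and 10.1 to 106.3 CPM in control. Acellular 10 overlapped the controls, and the log2 fold change of −2.66 ± 1.61 did not pass the test (edgeR quasi-likelihood, Benjamini-Hochberg adjusted p = 0.871). SELE, the selectin that inflamed endothelium displays to leukocytes, measured 2.55, 4.70 and 3.55 CPM against 3.91 to 55.5 CPM (−2.27 ± 0.788, and −1.44 without control 16).

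**Figure D5:**
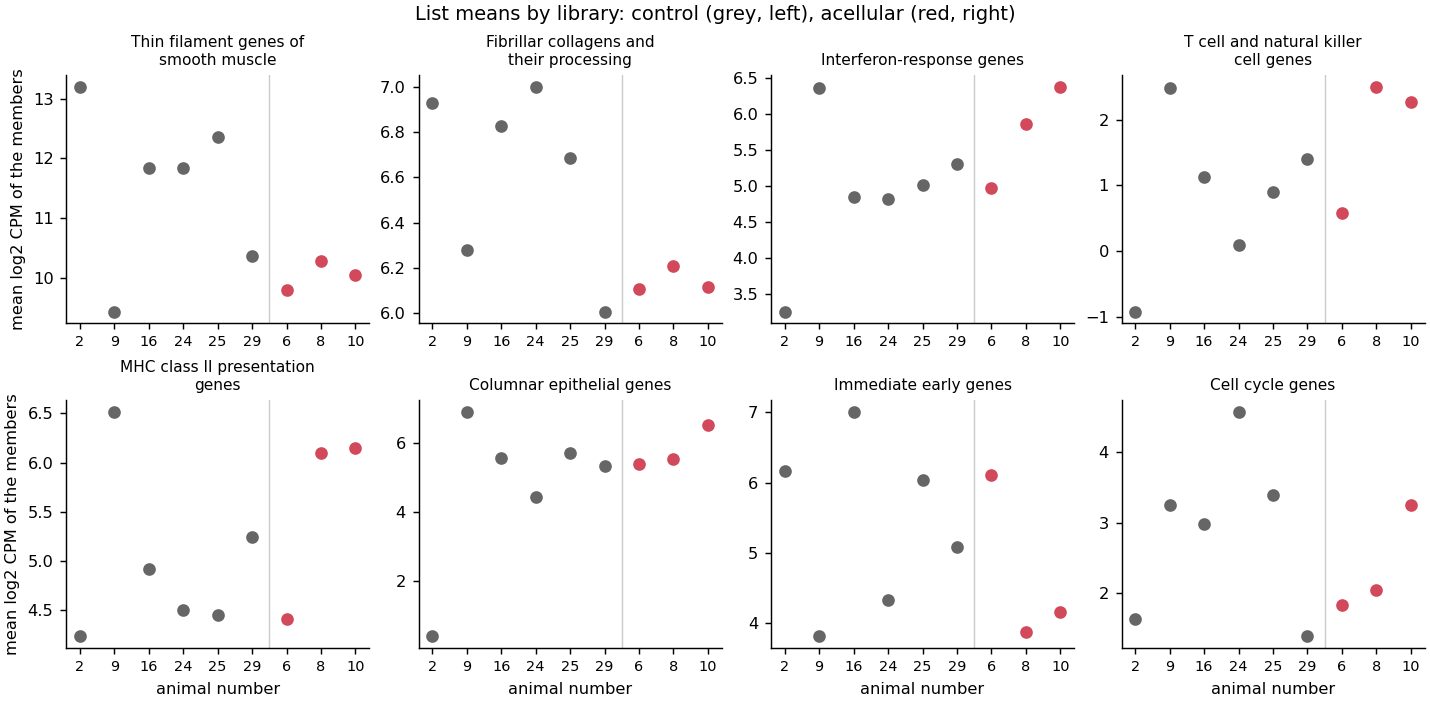
Mean log2 CPM (y axis) of 8 gene lists in each control (grey) and acellular (red) library, named by animal number (x axis). Acellular 6 lies apart from acellular 8 and 10 for the interferon, T cell, class II and immediate early genes, and control 2 is the lowest library for the epithelial list.

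Columnar epithelial genes were higher in 20 of 24 cases, none with an unadjusted p under 0.05, and the median was 0.25. It was 0.02 without control 2, 0.73 without control 9, 0.45 without both, 0.12 without control 24 and −0.13 without acellular 10. PIGR, the receptor that carries antibodies across epithelium, measured 725, 1674 and 3335 CPM in acellular and 6.03 to 2800 CPM in control (log2 fold change 1.34 ± 0.999, 2.47 without control 9 and 0.67 without acellular 10; edgeR quasi-likelihood, Benjamini-Hochberg adjusted p = 0.881). Squamous epithelial genes were split, 7 higher and 6 lower of 13, with a median of 0.05 that lay between −0.18 and 0.24 when 1 library was left out. Their non-overlapping member was KRT10, a keratin of differentiating squamous layers, at 9.12, 6.72 and 6.66 CPM against 9.96 to 16.9 CPM (−0.63 ± 0.252). Motile cilia genes had a median of −0.40 that lay between −1.44 (without acellular 10) and 0.26 (without control 24) when 1 library was left out. Their list means were 2.99 in control 16, 3.21 in control 24 and 2.70 in acellular 10, and −0.74 to 0.10 in the other 6 libraries.

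Nuclear genes of oxidative phosphorylation, the respiratory chain of mitochondria, were lower in 26 of 28 cases. Of these, 5 had an unadjusted p under 0.05 (4.22% of all genes on the lower side). The median was −0.39 (−0.21 without control 2 and −0.25 without acellular 6). UQCRQ, a complex III subunit, measured 72.7, 71.4 and 91.7 CPM in acellular and 88.3 to 173 CPM in control (−0.66 ± 0.247). Control 2 lay above every acellular library for 27 of the 28 genes and control 25 for 26, but control 9 for 3 and control 29 for 4. Control 9 and control 29 were the controls least often above acellular tissue here, as they were for the contractile genes. The mitochondrially encoded genes were all below 0, with a median of −0.24 that was 0.32 without control 2 and −0.60 without acellular 8. Hypoxia and glycolysis genes were lower in 17 of 19, 4 with an unadjusted p under 0.05 (again 4.22% of all genes), with a median of −0.31. CA9, a carbonic anhydrase induced by low oxygen, measured 5.29, 4.10 and 1.33 CPM in acellular and 1.76 to 42.6 CPM in control (−2.5 ± 0.909).

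Immediate early genes, which respond within minutes to stimulation of a cell, were all 21 below 0, with a median of −0.71. An unadjusted p under 0.05 was reached by 1 of them, close to the 4.22% of all genes on the lower side. Leaving out acellular 6 gave a median of −2.04, leaving out acellular 8 gave −0.32 and leaving out acellular 10 gave −0.40. Leaving out control 16 gave −0.28. EGR1, a zinc finger transcription factor of this class, measured 438, 40.1 and 67.7 CPM in acellular and 31 to 1538 CPM in control. Cell cycle genes were lower in 27 of 29 cases, none with an unadjusted p under 0.05. The median of −0.77 moved to −0.18 without control 24, to −0.47 when acellular 6 was left out and to −1.39 when acellular 10 was. FOXM1, a transcription factor of mitosis, had 8, 9 and 42 counts in acellular and 7 to 229 counts in control, with the highest in control 24.

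Skeletal muscle genes had a median of −1.72 over 12 members, with 10 lower and 2 of these at an unadjusted p under 0.05 (4.22% of all genes). The median was −1.07 without control 2 and −1.06 without control 25. CASQ1, the calcium store protein of skeletal muscle, had 22, 9 and 5 counts in acellular and 10 to 375 counts in control (−3.56 ± 1.27), and CKM, the muscle creatine kinase, measured 43.5, 6.79 and 1.68 CPM against 1.56 to 231 CPM. ACTA1, the skeletal alpha actin, measured 0.639, 0.134 and 1.87 CPM against 0.280 to 16.8 CPM. The mean log2 CPM of the list was 1.84, 1.23 and 1.25 in acellular and 0.99 to 3.84 in control. Control 9 and control 29 were the lowest controls on this list too. Schwann cell and nerve genes were lower in 12 of 16 cases, 2 with an unadjusted p under 0.05 (4.22% of all genes on the lower side). Their median of −0.58 moved to −0.28 without control 29, to −0.34 when acellular 10 was left out and to −0.93 when acellular 6 was. SOX10, a transcription factor of Schwann cells, measured 3.01, 1.81 and 1.48 CPM in acellular and 1.32 to 5.44 CPM in control, so the groups overlapped.

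Steroid receptors and their targets showed no direction, with 8 higher and 7 lower of 15 and none at an unadjusted p under 0.05. PGR measured 97.3, 180 and 171 CPM in acellular and 79.8 to 170 CPM in control (0.36 ± 0.36, with 0.20 without acellular 8 and 0.59 without acellular 6; edgeR quasi-likelihood, Benjamini-Hochberg adjusted p = 0.916). Of 51 listed cytoplasmic ribosomal protein genes, a set that most cells express at a steady level, 13 were tested. Of these 11 were higher. Their median was 0.23, which was 0.50 without control 2 and −0.02 without acellular 6.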

How the data were processed

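The authors deposited 1 table of raw read counts per gene for the 16 libraries. Its columns were matched to samples by the index that ends the column name in each label. Reads came from the Illumina TruSeq Stranded mRNA kit, per the labels' protocols, and FastQC, HISAT2 2.2.1 and featureCounts are named in the submitters' processing notes. The genome build, annotation and strand setting are not given in the sources used here, so reads of overlapping or antisense genes cannot be told apart.

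A line that pools genes without a name held 22.9% to 28.5% of the counts in the 9 libraries and was left out. The remaining counts were tested in R 4.3.3 with edgeR 4.0.16: filterByExpr, TMM scaling, and the quasi-likelihood F test on all 16 libraries with a mean per group (12 residual degrees of freedom, common biological coefficient of variation 0.44), contrast acellular minus control, with Benjamini-Hochberg adjustment over all genes tested. CPM are counts over TMM-scaled library sizes. DESeq2 1.42.0 and limma 3.58.1 (voom with quality weights) served as alternatives, and permutation tests used scipy 1.17.1. The edgeR analysis was tested on simulated data. Each of the 9 libraries is a separate animal. The comparison, gene lists and tests were chosen with earlier results of these data known. Genes named are the 20 with the smallest p, DESeq2's calls, up to 5 members of each list with the smallest p plus cell type markers, and the 10 highest and 10 lowest fold changes among genes with p under 0.01, no overlap and 1 CPM. Some named genes and their values are not reported here. TFE3, NPC2, SMPDL3A and TMEM192 belong to a lysosomal list written after their values were seen.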

Additional observations from a re-analysis of the deposited data

Results flagged for a closer look

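Among 152 values examined in the 6 control libraries, 8 had 1 library far from the rest, by Dixon's test at the 95% level. Chance alone gives this in about 1 in 20 groups, and 8 of 152 is close to that share. The values are also not independent of each other, since they come from the same libraries. Of these, 4 belonged to control 2. It was lowest for the epithelial adhesion protein CDH1, at 0.54 on the log2 CPM scale against 5.18 in the next control, and for the receptor KIT, at −0.86 against 1.64. Its mean over the squamous epithelial genes was 1.40 against 3.37, and it had 10797 genes detected against 11427. Control 9 was highest for the B cell and plasma cell genes, with a mean of 4.28 on the log2 CPM scale against 1.93, and for TMEM192, at 4.29 against 3.85. Control 24 was highest for PPP1R14A, at 3.72 against 2.25, and control 25 for KRT10, at 4.08 against 3.59.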

How the results depend on the processing

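No gene passed the adjusted threshold in edgeR, in limma-voom or with any 1 library left out, while DESeq2 called 10 genes with default filtering, 10 with no independent filtering and 17 with filtering set for 0.05. At an unadjusted p under 0.05, edgeR gave 656 genes, limma-voom 1665 and a fit of the 9 libraries alone 401. The lower genes numbered 462, 919 and 266 in those 3 fits, and the higher genes 194, 746 and 135. A fit that left out PLATE 1, a library outside the comparison, gave 876 genes, 600 lower and 276 higher. Without control 2 and control 9 there were 460 lower and 403 higher genes. With 1 of the 9 libraries left out, the count of all such genes lay between 311 and 1107. That of lower genes lay between 217 and 677, and that of higher genes between 94 and 430. Each was lowest without acellular 8 and highest without control 9. Genes without overlap numbered 189, 668 without control 2 and control 9, and 239 to 936 with 1 of the 9 libraries left out. Fewer libraries in a group make such a gap more frequent by construction. The cause of the other differences was not tested. DESeq2 size factors moved the median of all genes from −0.03 to −0.02 and the share of lower genes among those under 0.05 from 70.4% to 64.2%. No log2 fold change given here for a gene against control changed sign under any alternative run, but sizes differed. Limma-voom gave −2.35 for ACTG2 (edgeR −3.48), −1.56 for DES (−2.47) and −0.83 for MYH11 (−1.35). For CXCL11 it gave a larger value, 3.27 against 2.41. The thin filament median was −1.48 in limma-voom and −2.07 in edgeR. Some list medians changed sign there, among them those of the endothelial (0.15), B cell (0.40) and steroid receptor genes (−0.40). No paired analysis was possible because acellular and control animals share no number. A planned search of promoters for motifs was not run, and promoter sequences were not used here. With 3 acellular libraries the smallest p of the exact permutation test was 0.0238, and the SE of single fold changes had a median of 0.30 (log2).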

Other observations

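Because SMPDL3A and TMEM192 encode lysosomal or related proteins, a list of lysosomal genes was written after their values had been seen, and it is not independent of them. Of 41 members tested, 31 were higher in acellular tissue and 3 of these had an unadjusted p under 0.05, while 10 were lower and 1 had one. Among all genes tested, the shares at that p were 1.77% on the higher side and 4.22% on the lower side. The 2 members whose groups did not overlap were the 2 genes that prompted the list. The median log2 fold change was 0.18, and it was 0.35 without control 9 and −0.04 without acellular 10. NPC2, which moves cholesterol out of lysosomes, averaged 183 CPM in acellular and 122 CPM in control, and TFE3, a transcription factor of lysosomal genes, averaged 40.9 and 51.9 CPM. On the mean log2 CPM of the list the acellular libraries were at 6.50, 6.79 and 7.09 and the controls between 6.38 and 7.01.

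Some of the lowest fold changes rested on few reads. PLA2G12B, a secreted phospholipase A2 family protein, had 2, 0 and 3 counts in acellular and 2 to 203 in control, with the highest in control 9. PYCR1, an enzyme of proline synthesis, had 9, 2 and 1 counts in acellular and 9 to 55 in control.

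Of 3 mast cell genes tested 1 was higher and 2 were lower (median −0.56 on the log2 scale). FCER1A, a chain of the IgE receptor of mast cells, measured 0.912, 0.470 and 1.58 CPM in acellular and 0.605 to 5.13 CPM in control, and MS4A2, another chain of it, 1.32, 2.02 and 3.11 CPM against 1.40 to 5.59 CPM. The higher one was KIT, a receptor found on mast cells and on interstitial pacemaker cells, which measured 13.7, 12.3 and 4.09 CPM in acellular and 0.45 to 7.80 CPM in control (log2 fold change 1.42 ± 0.64). Acellular 6 and 8 lay above every control and acellular 10 within them. LCN2, an antimicrobial protein of epithelium and neutrophils, measured 99.2, 37.0 and 71.8 CPM in acellular and 0.81 to 89.2 CPM in control (1.54 ± 0.846, and 2.69 without control 9). CIDEA, a lipid droplet protein, did not overlap between groups, with 20, 9 and 39 counts in acellular and 45 to 283 counts in control (−2.36 ± 0.827).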
